A study of Danio rerio with 6 samples.

Results

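The nuclear pore complex genes of zebrafish were compared between wild-type and *eif4e1b* mutant gonads. The 31 gene symbols of this set name the structural nucleoporins and their close partners, and they were matched to the count tables by Ensembl identifier through a table of gene names. All 31 symbols were found, in 33 of the 32520 rows of the tables, because *nup85* and *tpr* are each carried by 2 identifiers. All 33 rows passed the filter on low counts, and the lowest count of any of them in any sample was 60.

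Each of the 6 samples pooled 3 gonads of juvenile zebrafish that expressed *ziwi:GFP* strongly, and there were 3 samples per genotype. The genotypes were tg(ziwi:GFP), eif4e1b +/+ and tg(ziwi:GFP), eif4e1b -/-, so wild-type and mutant fish both carried the transgene, in which the promoter of the germ cell gene *ziwi* drives green fluorescent protein. The labels call every sample female and its tissue ovary. The age in days and the *eif4e1b* allele used for these samples are not given in the sources used here, and the study's methods describe deletions in the third exon that shift the reading frame. A juvenile gonad holds germ cells together with somatic cells, and in such bulk samples fewer cells of a type cannot be told apart from less RNA per cell.

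A nuclear pore is a channel through the nuclear envelope built from many copies of each nucleoporin. Outer rings of Y-shaped complexes face the cytoplasm and the nucleus, an inner ring lines the membrane between them, membrane proteins anchor the whole, and nucleoporins rich in phenylalanine and glycine (FG) repeats fill the channel and pass cargo carried by importins and exportins. Growing oocytes stockpile nucleoporins, as a large nucleus with very many pores and, in fish and other animals, as annulate lamellae, stacks of cytoplasmic membrane that hold pore complexes for the embryo.

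The libraries differed in ways that bear on every value below. Where 3 values of a genotype follow each other, they are those of replicates 1, 2 and 3 in that order. Wild-type libraries held between 11771342 and 13362230 counts, and mutant libraries between 5539470 and 8233080. The 10 most abundant genes took between 3.28% and 4.1% of the counts in wild-type libraries, and 7.71%, 21.2% and 11.5% in the mutant. Counts of *eif4e1b* itself were 1391, 1116 and 1386 in the wild type and 55, 9 and 24 in the mutant, in the direction of the genotype labels. The 30.4-fold fall lay within that of 11 oocyte genes, from 17.2-fold to 108-fold, so it does not check these labels by itself. The label of ovary was checked against 11 oocyte genes. Their summed level lay between 8536 and 11253 TMM-CPM in wild-type samples but was 305, 26.8 and 29.5 in the mutant samples. TMM-CPM are counts divided by the library total after scaling by the trimmed mean of M-values, per 1e+06. None of the 11 was at 0 in all mutant samples, although the mutant libraries held little of the message that marks the labelled tissue.

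Under TMM scaling, transcripts of the nuclear pore fell in mutant gonads in every substructure, and other scalings given below left fewer calls. With edgeR's quasi-likelihood test and TMM factors, 26 of the 33 rows fell at an adjusted p under 0.05 (adjusted over the 20091 genes tested), 0 rose and 7 did not pass. Of all tested genes 32.0% fell and 37.5% rose. At an unadjusted p under 0.05, edgeR, DESeq2 and limma-voom each called 0 of the 33 higher. In 29 rows all 3 mutant values lay below all 3 wild-type values, against 35.4% of all tested genes, and in 0 rows they lay above, against 39.8%. The median log2 fold change, mutant over wild type, was -0.99, within a range from -2.69 for *nup35* to 0.42 for one *nup85* row. The median of all tested genes was 0.23. The summed level of the 33 rows was 6094, 5822 and 6052 TMM-CPM in the wild type and 2724, 2400 and 2731 in the mutant, 2.29-fold lower on average.

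**Figure D1:**
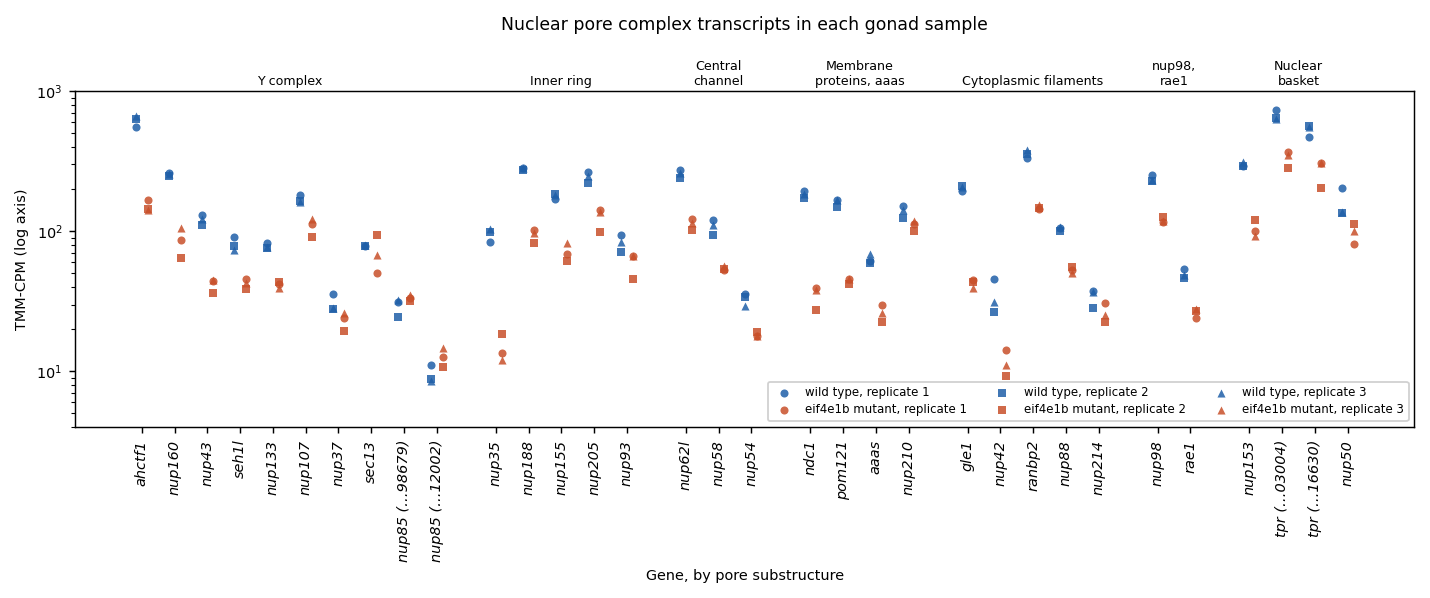
Level of each of the 33 nuclear pore rows in each sample, as TMM-CPM on a log axis, with genes grouped by substructure and ordered by fold change. Blue symbols are the 3 wild-type samples, orange symbols the 3 mutant samples, and the symbol's shape gives the replicate; all 3 mutant values lie below the wild-type values in 29 rows, and they overlap for *sec13*, *nup214* and both *nup85* rows.

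The count of calls depended on how the libraries were scaled to each other. Scaled by library totals alone, 9 of the 33 rows fell and 0 rose, where 18.6% of all tested genes fell and 41.1% rose. With upper-quartile factors 13 fell and 2 rose, the 2 *nup85* rows, where 19.9% of all tested genes fell and 49.0% rose. The share of rises among all calls was 53.9% with TMM, 68.8% with totals and 71.1% with upper-quartile factors. A change of scaling moves all genes by nearly the same amount, and the median of all tested genes went to 0.65 with totals and 0.92 with upper-quartile factors while that of the pore genes went to -0.55 and -0.30. The number of pore rows with a negative log2 fold change was 31 with TMM, 26 with totals and 25 with upper-quartile factors. Only 9 rows fell under each of the alternatives in normalization, filter, test and left-out sample. They were *ahctf1*, *nup160*, *nup43*, *nup35*, *nup188*, *ndc1*, *pom121*, *gle1* and *nup153*, which belong to 5 of the 7 substructures.

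**Figure D2:**
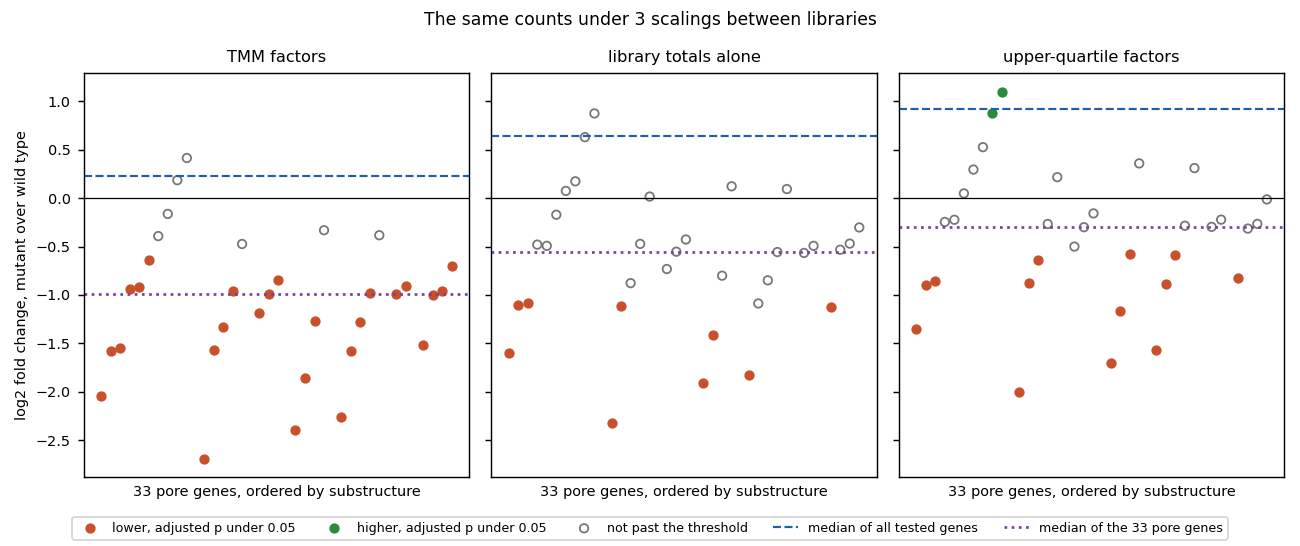
Log2 fold change, mutant over wild type, of the 33 nuclear pore rows from the same counts under TMM factors, library totals alone and upper-quartile factors, with genes in the same order in each panel. Filled orange points fell and filled green points rose at an adjusted p under 0.05, open points did not pass, the dashed line is the median of all tested genes and the dotted line the median of the pore genes; 26, 9 and 13 rows fell, and both lines move up together from the first panel to the last.

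The Y complex forms the cytoplasmic and the nuclear outer rings. Of its 10 rows, 6 fell, with a median log2 fold change of -0.78. The smallest p in the Y complex belonged to *ahctf1*, which encodes Elys, the chromatin-binding subunit that seeds new pores after mitosis. Its levels were 556, 638 and 667 TMM-CPM in the wild type and 166, 144 and 142 in the mutant. The 3 mutant samples lay close together and far below the wild-type samples (log2 fold change -2.04, SE 0.23, adjusted p = 0.000667).
The scaffold subunits *nup160* and *nup43* also fell, from means of 256 ± 6.0 and 122 ± 10.4 TMM-CPM (SD, n = 3) to 85.6 ± 20.3 and 41.8 ± 4.75, with log2 fold changes of -1.58 (SE 0.23, adjusted p = 0.00157) and -1.55 (SE 0.18, adjusted p = 0.000699).

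Smaller falls were found for 3 further subunits of the outer rings. *nup133*, whose product touches curved membrane in yeast and human cells, went from 78.4 ± 3.77 to 41.6 ± 2.28 TMM-CPM (log2 fold change -0.91, SE 0.16, adjusted p = 0.00257). *seh1l*, a subunit shared with the GATOR complex that controls TORC1, went from 81.0 ± 9.23 to 42.4 ± 3.4 (log2 fold change -0.93, SE 0.17, adjusted p = 0.00352). *nup107*, a stem subunit, went from 170 ± 11.1 to 109 ± 16.5 (log2 fold change -0.64, SE 0.19, adjusted p = 0.0229). Under upper-quartile factors, and also under totals alone, *nup133* and *seh1l* lost their calls. The call of *nup107* was the least stable of these. It was lost without wild-type replicate 1, 2 or 3, with totals alone and with no filter, and its log2 fold change was 0.05 with upper-quartile factors.

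The 4 other rows of the Y complex did not pass the test. *sec13*, which also forms the outer coat of COPII vesicles that leave the endoplasmic reticulum, had the largest p in the group. Its levels were 78.3, 79.2 and 80.4 TMM-CPM in the wild type and 50.3, 94.6 and 67.6 in the mutant. The mutant samples lay on both sides of the tight wild-type values (log2 fold change -0.16, SE 0.25, adjusted p = 0.581). Mutant replicate 2, the highest of them, was also the sample with 67450 TMM-CPM over 7 liver genes, against 325 and 8900 in mutant replicates 1 and 3 and at most 1708 in wild-type samples, and the part of this in the *sec13* value was not tested. The small subunit *nup37* had means of 30.5 ± 4.39 and 23.3 ± 3.38 (log2 fold change -0.39, SE 0.21, adjusted p = 0.131).

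*nup85*, the Y complex subunit that holds Seh1 in the short arm, had 2 identifiers in the tables. The levels of ENSDARG00000098679 were 31.2, 24.3 and 32.4 TMM-CPM in the wild type and 33.4, 31.8 and 34.8 in the mutant. Those of ENSDARG00000112002 were 11.2, 8.76 and 8.57 in the wild type and 12.6, 10.7 and 14.7 in the mutant. Both rows overlapped between genotypes, with log2 fold changes of 0.19 (SE 0.19, adjusted p = 0.399) and 0.42 (SE 0.25, adjusted p = 0.177), and these were the 2 positive values among the 33 rows. How reads that fit both identifiers were counted is not given in the sources used here, so the split between them is uncertain.

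**Figure D3:**
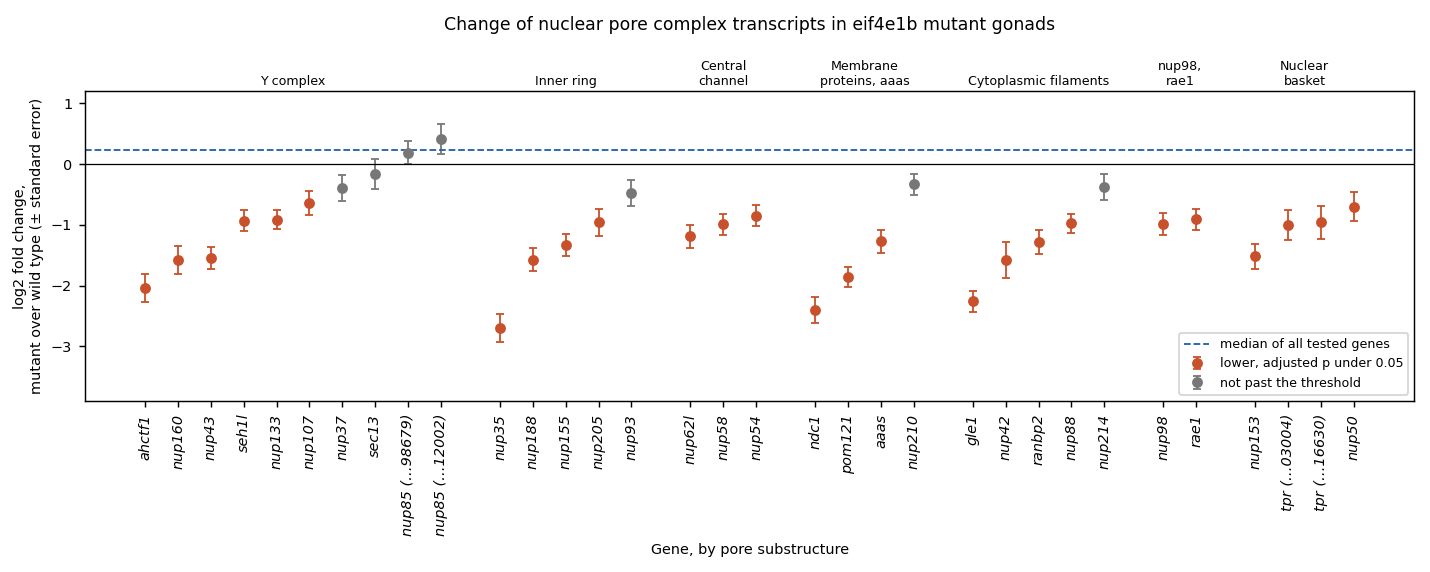
Log2 fold change, mutant over wild type, of each of the 33 nuclear pore rows with its standard error from edgeR, grouped by substructure. Orange points fell at an adjusted p under 0.05 and grey points did not pass; values run from -2.69 for *nup35* to 0.42 for one *nup85* row, and the dashed line marks the median of all tested genes at 0.23.

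The inner ring joins the outer rings to the membrane and the channel. Of its 5 genes 4 fell, with a median log2 fold change of -1.33. *nup35*, whose product (also called Nup53) links the inner ring scaffold to the membrane, had the largest fall of all 33 rows. Its levels were 83.6, 98.2 and 104 TMM-CPM in the wild type and 13.6, 18.6 and 12.0 in the mutant. No mutant sample came near the wild-type range (log2 fold change -2.69, SE 0.23, adjusted p = 0.000334). The large scaffold genes *nup188*, *nup155* and *nup205* fell by 1.57 (SE 0.19, adjusted p = 0.000814), 1.33 (SE 0.19, adjusted p = 0.00133) and 0.96 (SE 0.22, adjusted p = 0.00796) on the log2 scale. Their wild-type means of 281 ± 5.05, 179 ± 6.42 and 245 ± 21.4 TMM-CPM compared with 94.4 ± 10.7, 71.1 ± 10.7 and 126 ± 23.2 in the mutant. The calls of *nup155* and *nup205* were lost with library totals alone, and that of *nup205* also with upper-quartile factors.

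*nup93*, the inner ring scaffold that ties the FG nucleoporins of the channel in place, had the largest p of the inner ring. Its levels were 94.1, 70.8 and 83.6 TMM-CPM in the wild type and 66.9, 45.9 and 66.2 in the mutant. No mutant value reached the wild-type range, but the gap between 66.9 and 70.8 was small beside the spread within each genotype (log2 fold change -0.47, SE 0.22, adjusted p = 0.0919).

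All 3 genes of the central channel fell, by similar amounts. Their products form the FG-repeat complex through which cargo passes. *nup62l* had the smallest p, with levels of 275, 242 and 259.6 TMM-CPM in the wild type and 123, 102 and 115 in the mutant. All mutant samples lay well below the lowest wild-type sample (log2 fold change -1.19, SE 0.19, adjusted p = 0.00199). *nup54* had the largest p of the 3, with 35.6, 34 and 29.2 in the wild type and 18.0, 19.1 and 17.9 in the mutant. Its groups did not overlap either (log2 fold change -0.85, SE 0.18, adjusted p = 0.00585). *nup58* went from 108 ± 13.6 to 54.5 ± 2.1 (log2 fold change -0.99, SE 0.17, adjusted p = 0.00285). With library totals alone or upper-quartile factors the calls of all 3 channel genes were lost, at the lower whole-set counts given above.

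Of the 4 genes for pore membrane proteins and their partner, 3 fell, with a median log2 fold change of -1.56. *ndc1*, whose transmembrane product is needed for pore insertion in yeast and vertebrate cells, had the smallest p. Its levels were 193, 173 and 184 TMM-CPM in the wild type and 39.2, 27.3 and 38.0 in the mutant. The wild-type samples differed little from each other and all exceeded every mutant sample (log2 fold change -2.40, SE 0.21, adjusted p = 0.000344). *pom121*, a second membrane anchor, went from 161 ± 11.1 to 44.3 ± 2.25 (log2 fold change -1.86, SE 0.17, adjusted p = 0.000355). *aaas* encodes Aladin, which is held at the pore by Ndc1, and went from 63.0 ± 5.13 to 26.1 ± 3.77 (log2 fold change -1.27, SE 0.19, adjusted p = 0.00151). The call of *aaas* was lost with library totals alone.

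The third membrane protein, *nup210* (gp210), whose level in other vertebrates varies with cell type, did not pass. Its levels were 151, 124 and 142 TMM-CPM in the wild type and 114, 101 and 118 in the mutant. Each mutant value was under each wild-type value, by a margin smaller than the spread within the wild type (log2 fold change -0.33, SE 0.18, adjusted p = 0.133).

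The cytoplasmic filaments release exported messenger RNA from the pore, and 4 of their 5 genes fell, with a median log2 fold change of -1.28. *gle1*, the activator of the helicase Ddx19 in this release, had the smallest p of all 33 rows. Its levels were 194, 209 and 206 TMM-CPM in the wild type and 44.8, 43.4 and 39.1 in the mutant. Both genotypes were tight, and no mutant sample came near the wild-type samples (log2 fold change -2.26, SE 0.17, adjusted p = 0.000302). *nup42*, a binding partner of Gle1, went from 34.4 ± 10.1 to 11.5 ± 2.41 (log2 fold change -1.58, SE 0.29, adjusted p = 0.0033). *ranbp2* (Nup358), the large filament protein that binds Ran, went from 359 ± 24.1 to 148 ± 4.67 (log2 fold change -1.28, SE 0.20, adjusted p = 0.00176), and *nup88*, the scaffold partner of Nup214, from 104 ± 3.48 to 53.0 ± 2.59 (log2 fold change -0.98, SE 0.16, adjusted p = 0.002). The calls of *nup42*, *ranbp2* and *nup88* were lost with library totals alone, and that of *nup88* also with upper-quartile factors.

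*nup214*, an FG nucleoporin at the base of the filaments that recruits Ddx19, was the exception among them. Its levels were 37.4, 28.1 and 36.6 TMM-CPM in the wild type and 30.7, 22.3 and 25.2 in the mutant. Mutant replicate 1 lay above wild-type replicate 2, so the groups overlapped (log2 fold change -0.38, SE 0.21, adjusted p = 0.148).

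*nup98*, a mobile FG nucleoporin found on both faces of the pore, and *rae1*, the mRNA export factor that binds it, both fell. Levels of *nup98* were 253, 230 and 232 TMM-CPM in the wild type and 117, 126 and 118 in the mutant. The genotypes were well separated (log2 fold change -0.99, SE 0.18, adjusted p = 0.00311). Levels of *rae1* were 53.7, 46.2 and 48.7 in the wild type and 23.9, 27.2 and 28.0 in the mutant. They were separated in the same way (log2 fold change -0.91, SE 0.17, adjusted p = 0.00363). The calls of *nup98* and *rae1* were both lost with library totals alone and also with upper-quartile factors. In human cells the *NUP98* gene also encodes Nup96, a subunit of the Y complex, and counts per gene do not separate such products.

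The nuclear basket extends from the nuclear ring, and its 4 rows all fell, with a median log2 fold change of -0.98. *nup153*, which anchors the basket, had the smallest p, with 293, 293 and 312 TMM-CPM in the wild type and 101, 120 and 92.8 in the mutant. The wild-type samples were close to each other and all lay above the mutant samples (log2 fold change -1.52, SE 0.20, adjusted p = 0.00107). *nup50*, a mobile basket nucleoporin that helps release imported cargo, had the largest p, with 204, 135 and 138 in the wild type and 81.7, 112 and 100.3 in the mutant. Wild-type replicate 1 stood above the other wild-type samples (log2 fold change -0.70, SE 0.24, adjusted p = 0.0367), and the call was lost without wild-type replicate 1 or 3 or mutant replicate 1, with totals alone and with upper-quartile factors, where the log2 fold change was -0.0125.

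*tpr*, the coiled-coil protein that makes the basket's struts, was the symbol of 2 identifiers. These may belong to separate genes, so their rows are given apart. ENSDARG00000103004 had 740.2, 647 and 631 TMM-CPM in the wild type and 371, 285 and 350.0 in the mutant. ENSDARG00000016630 had 472, 566 and 552 in the wild type and 309, 202 and 308 in the mutant. Mutant replicate 2 was the lowest sample for both rows, and neither row overlapped between genotypes (log2 fold changes -1.0, SE 0.25, adjusted p = 0.0108, and -0.96, SE 0.27, adjusted p = 0.0175). Both calls were lost with upper-quartile factors and with totals alone, and the second also without wild-type replicate 2 or 3.

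Shares of counts within a substructure do not depend on the scaling between libraries, and they show the unequal change of the members. They are given as a description, for genes chosen after their values were seen, and are not corrected for transcript length. *ahctf1* made up 38.0%, 43.7% and 44.2% of the Y complex counts in the wild type and 26.9%, 25% and 22.2% in the mutant. The *nup85* row ENSDARG00000098679 went the other way, from 1.98% ± 0.27 to 5.46% ± 0.07 (SD, n = 3). In the inner ring, *nup35* went from 10.8% ± 1.29 to 4.18% ± 1.64 and *nup93* from 9.36% ± 1.08 to 16.2% ± 1.11. Among the membrane proteins, *ndc1* went from 33.6% ± 0.83 to 16.0% ± 1.6 while *nup210* went from 25.4% ± 0.92 to 51.3% ± 1.36. In the cytoplasmic filaments, *gle1* went from 27.7% ± 1.13 to 15.1% ± 0.94 and *nup214* from 4.63% ± 0.68 to 9.27% ± 1.37. None of these shares overlapped between genotypes, and neither did those of most other pore rows. Shares of a sum are tied to each other, so a gain in share is no rise in level. The share of *nup107*, whose level fell, went from 11.5% ± 0.9 to 17.8% ± 1.77. The shares of *nup98* and *rae1* in their sum did overlap, with *rae1* at 17.2% ± 0.39 and 18.0% ± 1.09, and so did those of both *tpr* rows in the basket.

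The mutant samples were not equally low. Mutant replicate 2 was the lowest mutant sample in 20 of the 33 rows, replicate 1 in 6 and replicate 3 in 7. Mutant replicate 2 was also the library in which the pore genes took the smallest share of raw counts, 0.188% against 0.402% and 0.346% in replicates 1 and 3 and between 0.512% and 0.537% in the wild type. In that library the 10 most abundant genes took 21.2% of the counts. After TMM scaling the gap was smaller, with summed pore levels of 2400 TMM-CPM in mutant replicate 2 against 2724 and 2731 in replicates 1 and 3. Leaving out mutant replicate 2 gave 26 rows that fell and leaving out any other single sample gave 23 to 26.

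Several lists of cell type and cell cycle markers differed between the genotypes as well. Of the 109 symbols in these lists 91 were matched to the count tables, and the counts below are of rows found. All 11 oocyte genes fell, and so did 9 of 10 S phase rows and 6 of 7 mitosis genes. The S phase sums were 3080 to 3245 TMM-CPM in the wild type and 570.2 to 1010 in the mutant. The mitosis sums were 4606 to 4687 and 362 to 1007. The S phase row that rose was an *mcm6* row (ENSDARG00000057683), from 55.9, 12.5 and 7.35 to 313, 183 and 328. The S phase sums therefore understate the fall of the other rows. All 5 testis somatic genes tested, of 6 matched, rose, from 289, 15.9 and 20.9 to 1707, 1087 and 1412. Wild-type replicate 1 was the highest of its genotype. All 9 exocrine pancreas genes rose, from 59.7 to 232 in the wild type to between 22843 and 40965 in the mutant, and 4 of 4 skeletal muscle genes rose, from at most 24.6 to at least 102. Genes of germ cells of either sex moved both ways, with 3 of 9 lower and 2 higher, and their summed level overlapped between genotypes (1928 to 2709 in the wild type and 1496 to 3426 in the mutant). Of the meiotic prophase genes 3 of 8 rose and 0 fell (53.1 to 246 and 192 to 816), also at overlapping sums, and of those of spermatids and sperm 4 of 9 rose and 1 fell (30.9 to 68.8 and 39.3 to 127). These shares of rises, 37.5% and 44.4%, lay near the 37.5% of all tested genes that rose. The 33.3% of germ cell genes that fell lay near the 32.0% of all. Skin (4 of 5 higher and 1 lower, 720.0 to 959 and 1426 to 2919) and red blood cell genes (2 of 2 higher, 8.74 to 12.4 and 59.4 to 353) were mostly higher. The skin gene that fell, *epcam*, made up most of the wild-type skin sum. Its levels were 829, 648 and 691 TMM-CPM in the wild type and 33.3, 14.0 and 23.6 in the mutant. The skin sums therefore understate the rise of the other skin genes. Of 6 ovarian somatic symbols only *rspo1* and *fshr* were matched, and *cyp19a1a*, *foxl2a*, *foxl2b* and *wnt4a* were not. *fshr* rose and *rspo1* did not pass (summed 4.15 to 11 and 19.7 to 28.9), too few to describe the ovarian somatic cells. Of the liver genes 1 of 7 rose, *ttr*, whose values overlapped between genotypes. The liver log2 fold changes lay between 4.83 and 5.80. Liver sums were 58.6 to 1708 in the wild type and 325 to 67450 in the mutant, highest in mutant replicate 2. Of the leukocyte genes 1 of the 3 tested, of 4 matched, rose (9.26 to 54.7 and 80.1 to 82.8). These shares of rises, 14.3% and 33.3%, did not exceed the 37.5% of all tested genes. No marker in these lists was at 0 in all samples of a genotype. The part of these markers in the pore result was not tested. When only the matched rows of the pancreas, liver, muscle and skin lists were kept out of the TMM factors, 26 pore rows fell. Other genes of those tissues stayed in the factors, so the part of those tissues was not tested by it.

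A list of nuclear transport genes other than the nucleoporins was examined separately. Of its 61 symbols 49 were found, in 50 rows, and all 50 were tested. Of these 36 fell, 5 rose and 9 did not pass, with a median log2 fold change of -1.26. Over all tested genes 32.0% fell and 37.5% rose. Falls were counted in 3 of 7 importin alpha genes, 8 of 12 importin beta and transportin genes and 5 of 7 exportins. They were also counted in 7 of 9 genes listed under the Ran cycle and 13 of 15 rows listed under mRNA export. The Ran cycle list included *ranbp9* and *ranbp10*, which fell, and their part in that cycle was not tested. With library totals alone 21 of the 50 rows fell and 5 rose, and with upper-quartile factors 24 fell and 8 rose, beside the shares of all genes given for these scalings above.

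**Figure D4:**
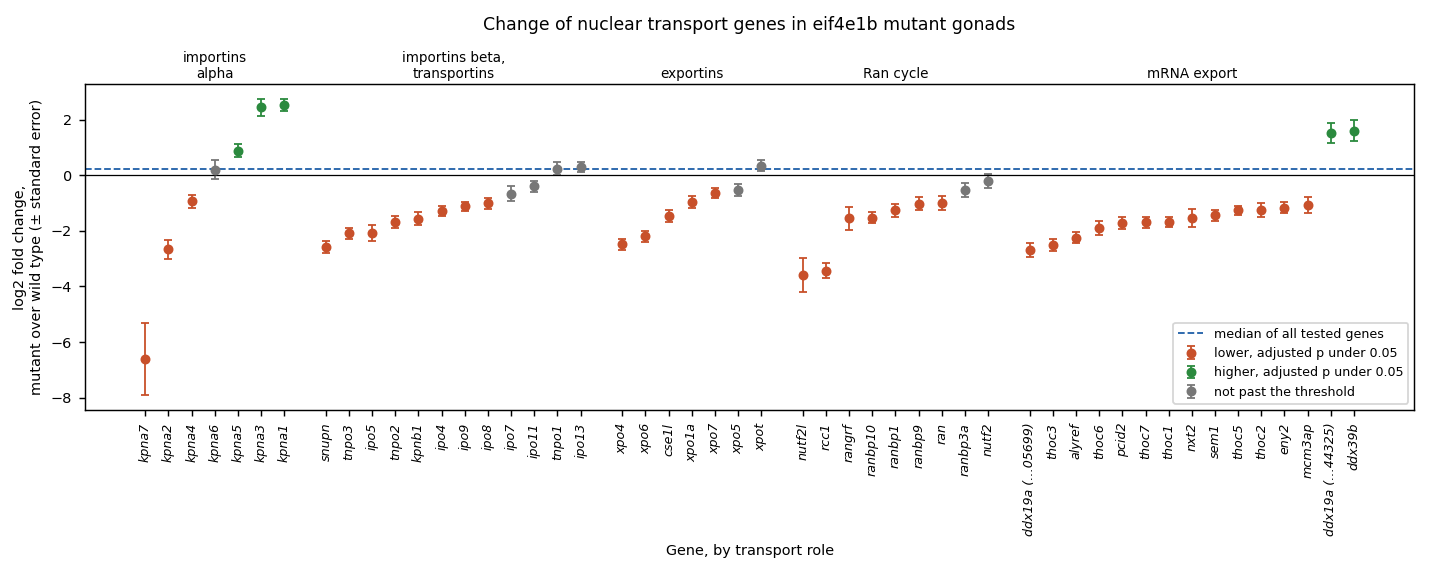
Log2 fold change, mutant over wild type, of the 50 nuclear transport rows with standard errors from edgeR, grouped by role and ordered by fold change. Orange points fell, green points rose and grey points did not pass at an adjusted p under 0.05; importin alpha genes lie on both sides of 0, from -6.63 for *kpna7* to 2.53 for *kpna1*.

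Among the lower transport genes with separated groups, the 5 smallest p-values belonged to *rcc1*, *snupn*, *thoc3*, *xpo4* and *alyref*. *rcc1*, the chromatin-bound exchange factor that loads Ran with GTP, had levels of 591, 595 and 587 TMM-CPM in the wild type and 53.1, 68.3 and 42.6 in the mutant. All mutant samples were far below the nearly equal wild-type samples (log2 fold change -3.43, SE 0.27, adjusted p = 0.000308). *snupn* encodes snurportin, the import adaptor of spliceosomal particles, and had a log2 fold change of -2.58 (SE 0.21, adjusted p = 0.000315). The exportin gene *xpo4* had -2.48 (SE 0.21, adjusted p = 0.000322). The mRNA export genes *thoc3*, of the THO complex, and *alyref*, the adaptor that loads the export receptor, had -2.51 (SE 0.21, adjusted p = 0.000316) and -2.24 (SE 0.20, adjusted p = 0.000336).

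The 5 rows that rose were *kpna1*, *kpna3*, *kpna5*, *ddx39b* and one of 2 *ddx19a* rows. *kpna1*, an importin alpha that reads nuclear localisation signals, had levels of 17.1, 11.7 and 11.7 TMM-CPM in the wild type and 74.2, 85.2 and 75 in the mutant. Every mutant sample exceeded every wild-type sample (log2 fold change 2.53, SE 0.22, adjusted p = 0.000345). *kpna3* and *kpna5*, of the same family, had log2 fold changes of 2.45 (SE 0.29, adjusted p = 0.000742) and 0.88 (SE 0.23, adjusted p = 0.0139), the latter lost without mutant replicate 1 or 3 and under DESeq2's Wald test. *ddx39b*, the helicase that joins THO to mRNA, had 1.61 (SE 0.38, adjusted p = 0.00892).

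The *ddx19a* rows, for the helicase that Gle1 activates and Nup214 binds, moved in opposite directions. ENSDARG00000044325 had 86.6, 67.8 and 66.6 TMM-CPM in the wild type and 262, 114 and 267 in the mutant (log2 fold change 1.54, SE 0.36, adjusted p = 0.00809). ENSDARG00000005699 had 541, 502 and 540 in the wild type and 76.8, 100.5 and 66.3 in the mutant (log2 fold change -2.70, SE 0.26, adjusted p = 0.000395). Neither row overlapped between genotypes, and both calls held in each of the 15 alternatives computed for them.

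The importin alpha family also held both falls and rises, with members named after their values were seen. The shares of its genes that fell and that rose, 42.9% each, lay near the 32.0% and 37.5% of all tested genes. *kpna7*, an importin alpha that mammals make in oocytes and early embryos, had levels of 949, 776 and 855 TMM-CPM in the wild type and 23.0, 1.86 and 1.07 in the mutant. Mutant replicate 1, which also had the highest oocyte sum of the mutants, stood above the other mutant samples (log2 fold change -6.63, SE 1.29, adjusted p = 0.00425; -9.23 without mutant replicate 1). *kpna2* fell by 2.67 on the log2 scale (SE 0.33, adjusted p = 0.000838) and *kpna4* by 0.94 (SE 0.24, adjusted p = 0.0115), while *kpna6* had 0.21 (SE 0.36, adjusted p = 0.613). The call of *kpna4* was lost with upper-quartile factors and with totals alone.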

How the data were processed

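Gonad RNA was purified with a column kit (RNeasy), prepared as stranded libraries depleted of ribosomal RNA with Ribo-Zero and sequenced on a NovaSeq instrument. The authors deposited raw counts per gene for each sample, with no normalization. The submitters' processing notes name Trim Galore 0.5.0, Bowtie2 2.3.4.1, featureCounts of Subread 1.6.2, DESeq2 1.18.1, R 3.4.1 and the build GRCz11. The annotation release, the strand setting and the rule for reads with several matches are not given in the sources used here.

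Counts were tested with edgeR 4.0.16 in R 4.3.3 (quasi-likelihood test, 2-sided, TMM factors, genotype as the only term). The default filter, a minimum count of 10 and a minimum total of 15, left 20091 genes, over all of which p-values were adjusted by Benjamini-Hochberg with a threshold of 0.05. The standard error is the log2 fold change divided by the square root of F. Levels are TMM-CPM per sample, mean ± SD with n = 3. No transcript lengths were used, so levels, summed levels and shares within a substructure do not rank genes by their number of transcripts. Replicates of a genotype differed by more than sampling noise (chi-square over degrees of freedom between 10.4 and 148.8), so each counted once. They are biological replicates per the series' design. The p-values set the genotype difference against the spread between 3 pools of gonads per genotype, which edgeR moderates over the tested genes. Variation between single fish was not measured. An exact permutation test of 3 against 3 cannot go below 0.1.

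The members and lists were chosen with earlier results of these data known. Every member is named. Values per sample are given for the member with the smallest and the largest p in each substructure and for any member called higher. For the nuclear transport list the 5 smallest p-values in each direction with separated groups are named. Values per sample for *nup85*, *tpr*, *kpna7* and the second *ddx19a* row were added after the values were seen.

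The alternatives changed the scaling (DESeq2 size factors, totals alone, upper-quartile factors, or TMM factors that leave out pancreas, liver, muscle and skin genes), the tool (the Wald test of DESeq2 1.42.0, or limma-voom with limma 3.58.1), the filter (any gene with a count, or a mean count of 10) and the threshold (a log2 fold change of 1 or more in size as well). A replicate block was fitted, and each sample was left out in turn. The genes left out of the TMM factors were only the matched rows of those marker lists. Summing rows with the same symbol was chosen after seeing the data. Coordinates and sequences were not used here. Plots used matplotlib 3.10.9 and pandas 2.3.3 under python 3.11.15.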

Additional observations from a re-analysis of the deposited data

How the results depend on the processing

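Of the 33 nuclear pore rows, 26 fell in the comparison as reported. The count was 9 when libraries were scaled by totals alone, 13 under upper-quartile factors and 15 where a log2 fold change of 1 or more in size was also required. With upper-quartile factors 2 pore rows rose. The transport rows that fell numbered 36 as reported and 21 with totals alone, and those that rose numbered 5 and, under upper-quartile scaling, 8. Over all genes 6437 fell as reported, 3740 with totals alone and 4001 under upper-quartile scaling. Of the pore and transport rows that fell, *nup107* and *xpo7* changed sign with upper-quartile factors, to log2 fold changes of 0.0498 and 0.0669. Neither was past the threshold, and changes of sign among other genes were not counted. Of the pore rows not called, *nup37* (0.30), *sec13* (0.53), *nup93* (0.22), *nup210* (0.36) and *nup214* (0.31) also turned positive there, none past it. The median of the pore rows lay 1.22 below that of all tested genes as reported, 2.08 below with no filter and 2.11 below with DESeq2's Wald test, where 29722 genes were tested in place of 20091. Which scaling fits these libraries was not tested. Leaving out 1 sample gave 23 to 26 pore rows that fell. DESeq2's Wald test, limma-voom, DESeq2 size factors and TMM factors without the other tissues' genes gave 26 each, no filter gave 25, and summing rows with the same symbol gave 25 of 31. Of the 26 pore rows that fell, 17 lost the call in at least 1 alternative. Both *nup85* rows gained one, with upper-quartile factors, and the other 5 rows gained none.

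Deviations of same-numbered samples from their genotype means correlated at 0.12, -0.20 and -0.05, and those of differently numbered samples between -0.40 and 0.40. These values cannot tell whether samples were paired, because the deviations within a genotype sum to 0 and depend on each other. With a replicate block 23 pore rows fell and 0 rose, and the calls of *nup107*, *nup50* and the *tpr* row ENSDARG00000016630 were lost. Every pore row had at least 60 counts in each sample, and standard errors ran from 0.16 to 0.29 on the log2 scale.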
